A study of Homo sapiens with 6 samples.

Results

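The subunit genes of the neurotransmitter-gated ion channels were followed through 2 states of human embryonic stem cells. Members were the protein-coding genes of the count table whose symbols name a subunit of a GABA-A receptor (GABRA to GABRR), an ionotropic glutamate receptor (GRIA, GRIK, GRIN, GRID), a glycine receptor (GLRA, GLRB) or a nicotinic acetylcholine receptor (CHRN). The rule gave 58 of 63677 genes, with 57 symbols, since GRIK5 stood in the table under 2 identifiers. No expression value entered the choice.

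RNA was sequenced from 2 human embryonic stem cell lines, Royan H6, here RH6, and Royan H5, here RH5. Naive cells were induced with a regime named 2a2iL and kept in 2iL medium, with 2 libraries of RH6 at passage 10 and 2 of RH5 at passage 17. Primed cells grew in a bFGF medium, with 1 library of RH6 at passage 20 and 1 of RH5 at passage 16. All 6 cultures grew on inactivated mouse embryonic fibroblasts, and state and medium changed together. The labels do not say that naive duplicates were separate cultures, so p-values measure only how far libraries differ, which can be technical. In such bulk libraries, fewer cells of a type and less RNA per cell cannot be told apart.

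Neurotransmitter-gated channels open an ion pore when a transmitter binds. GABA-A, glycine and nicotinic receptors belong to the Cys-loop family, whose subunits assemble around a central pore, and the first 2 of these conduct chloride while nicotinic receptors conduct cations. Ionotropic glutamate receptors are built differently and carry the fast excitation of the brain as AMPA, kainate and NMDA types, while the delta subunits bind synaptic proteins. In stem and precursor cells GABA-A receptors are known as a brake on proliferation, and a channel on the surface needs a fitting set of subunits, which RNA levels alone do not show.

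Over both lines, 10 of 16 tested glutamate receptor genes were lower in naive cells and the other 6 were not called, and a few inhibitory channel genes were higher. Of the 42 members with enough counts to test, 6 rose (14.3%) and 13 fell (31%) in naive relative to primed cells, where 12.1% of all 19434 genes tested rose and 13.6% fell. In either direction that is 19 members (45.2%), against 25.7% of all genes. Calls here mean an adjusted p under 0.05 in edgeR's quasi-likelihood test, which had the line as a covariate. Among the rises were GABRB2, GABRR1 and GABRP of the GABA-A family and GLRA3 and GLRB of the glycine family. The falls were 10 glutamate receptor genes, the GABA-A gene GABRG1 and the nicotinic genes CHRNA4 and CHRNB2. Every one of these 19 genes had the same sign in RH6 and in RH5, which a choice by the test over both lines favours. Over all 42 tested members, 30 had the same sign in both lines. The median log2 fold change was -0.48 over the 42 members and -0.0065 over all genes tested.

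Of the called genes, CHRNA4, GABRG1, GRIA1 and GRIN1 passed the low-count filter through the primed libraries only, and GLRA3 and GLRB through the naive libraries only. The counts of calls therefore only describe the genes that passed. Among all genes, 21.5% had all 4 naive libraries above both primed libraries and 22.9% had them all below, and among the tested members the numbers were 7 and 16. When each line's naive libraries were added into 1, which leaves 1 residual degree of freedom, 5 of the 19 calls were kept (adjusted p 0.00713 to 0.0431), those of GABRB2, GABRR1, GRIK5, GRIA4 and CHRNA4. The other 14 were lost. Among all genes, 1127 of 20405 tested were called in this setting, against 4996 of 19434 in the main fit.

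Libraries held 13457979 to 14663982 counts, and the members together took 0.0403% to 0.0579% of them. All 10 pluripotency markers were detected in every library, among them POU5F1, NANOG and SOX2. Over both lines 5 of the 10 fell in naive cells while 0 rose, with a median log2 fold change of -0.54. The lines differed here, with a median of -0.21 within RH6 and -1.03 within RH5. Of 14 tested neural markers 6 fell and 0 rose in naive cells, namely PAX6, SIX3, RAX, ELAVL3, ELAVL4 and RBFOX3. The summed level of the neural list was 577 to 1138 CPM in naive libraries and 537 to 715 CPM in primed libraries. NEUROD1 had 0 counts in all 4 naive libraries and 14 and 3 in the primed ones. Of 10 tested fibroblast markers 7 rose and 1 fell, with a summed level of 579 to 1172 CPM in naive against 313 to 318 CPM in primed libraries. Of 10 tested trophoblast markers 6 rose and 1 fell, with a summed level of 599 to 684 CPM in naive against 192 to 221 CPM in primed libraries. Beside these marker counts, 12.1% of all genes tested rose and 13.6% fell. The part of these markers in the results on channel genes was not tested.

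The regions around the starts of 4 genes are shown to set the genes that rose beside those that fell. GABRB2 and GRIK5 had the lowest adjusted p in each direction, GABRP is a further rise and GRIK3 the largest fall of the kainate genes, chosen after their values were seen. The sequences come from RefSeq on build GRCh38.p14 and run from 250 bases before the start to 50 bases after it, 5′ to 3′ along the gene, with CpG dinucleotides in capitals.
GABRB2 (chr5:161546676-161546975, minus strand): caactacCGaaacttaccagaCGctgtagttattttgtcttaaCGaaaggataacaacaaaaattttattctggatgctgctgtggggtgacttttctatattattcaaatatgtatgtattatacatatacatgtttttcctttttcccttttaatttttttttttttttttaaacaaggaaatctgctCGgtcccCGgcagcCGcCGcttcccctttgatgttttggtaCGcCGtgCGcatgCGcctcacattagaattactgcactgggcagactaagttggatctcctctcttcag
GABRP (chr5:170783475-170783774, plus strand): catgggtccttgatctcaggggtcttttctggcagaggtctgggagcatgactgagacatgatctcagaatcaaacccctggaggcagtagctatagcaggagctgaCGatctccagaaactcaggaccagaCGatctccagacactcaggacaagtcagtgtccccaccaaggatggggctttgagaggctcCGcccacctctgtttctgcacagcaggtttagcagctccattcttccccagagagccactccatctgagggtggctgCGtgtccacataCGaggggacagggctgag
GRIK5 (chr19:42070157-42070456, minus strand): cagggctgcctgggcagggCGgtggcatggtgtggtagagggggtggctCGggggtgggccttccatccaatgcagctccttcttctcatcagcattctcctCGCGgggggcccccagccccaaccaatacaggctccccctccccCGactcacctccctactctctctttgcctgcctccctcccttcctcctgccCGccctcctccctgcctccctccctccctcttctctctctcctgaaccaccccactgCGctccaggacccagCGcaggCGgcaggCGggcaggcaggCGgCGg
GRIK3 (chr1:37034466-37034765, minus strand): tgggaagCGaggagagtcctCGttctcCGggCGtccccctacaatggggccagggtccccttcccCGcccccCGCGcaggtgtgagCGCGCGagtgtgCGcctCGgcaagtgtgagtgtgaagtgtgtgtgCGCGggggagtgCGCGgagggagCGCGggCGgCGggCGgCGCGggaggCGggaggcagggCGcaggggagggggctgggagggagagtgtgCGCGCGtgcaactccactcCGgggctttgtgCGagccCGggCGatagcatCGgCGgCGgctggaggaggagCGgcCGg
The GABRB2 window was AT-rich, with a GC content of 39.0% and 11 CpGs, and the GABRP window held 5 CpGs at a GC content of 56.0%. The kainate receptor windows shown were GC-rich, with 12 CpGs at 69.0% in GRIK5 and 37 CpGs at 74.3% in GRIK3. Other genes went the other way, so the windows shown do not stand for their groups. GLRB, which rose, had windows with 37 and 40 CpGs. GRIA4, which fell, had windows with 4, 7 and 26, and a window of GRIK2, which also fell, had a GC content of 54.3%. The RefSeq table held 53 promoters for 38 of the 57 member symbols. The median CpG number was 11 over 7 promoters of 5 genes that rose, 16 over 18 promoters of 11 genes that fell and 14 over all 35116 promoters.

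Short motifs were searched on both strands of these windows. CTTTGAT, the core letters bound by TCF/LEF factors of the Wnt pathway, stood in 1 of the 53 member promoters, that of GABRB2, and in 2.62% of all promoters. TATAAA stood in 5 of the 53, those of CHRNB1, GABRA2, GABRR1, GABRR2 and GLRA2, which is 9.43% against 11.5% of all promoters. CAGCACC, a part of the site bound by the neuronal repressor REST, stood in 4, which is 7.55% against 7.75% of all promoters. ATGCAAAT, the octamer, stood in 0 of the 53 and in 1.77% of all promoters. A match is only a run of letters in the window.

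Among GABA-A genes, the largest rise over both lines was that of a beta subunit gene, GABRB2. GABRB2 (ENSG00000145864) encodes the beta-2 subunit, a part of the most common GABA-A receptor of the adult brain. Its level was 75.8 and 76.7 CPM in naive RH6 and 121 and 126 CPM in naive RH5, against 2.82 CPM in primed RH6 and 3.84 CPM in primed RH5. Every naive library lay far above both primed libraries, for a log2 fold change of 4.88 ± 0.14 (± SE throughout, adjusted p = 2.71e-05). The rise was 4.75 ± 0.18 in RH6 and 5.0 ± 0.17 in RH5, and the difference between the lines was -0.25 ± 0.27 (adjusted p = 0.64). Among the naive libraries, RH6 was lower than RH5, at a log2 difference of -0.69 ± 0.09 (adjusted p = 4.81e-04).

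Levels can be set beside each other per kilobase of exon, here as means over the libraries of a state with no spread. GABRB2 averaged 9.97 CPM per kilobase in naive cells and 0.333 in primed cells. GRIK5, a kainate receptor gene, averaged 1.54 CPM per kilobase in naive cells and 6.83 in primed cells. GABRA5 and GABRQ stood at 4.30 and 3.16 CPM per kilobase in naive cells, against 5.79 and 3.90 in primed cells. Of these 4 genes GABRB2 was highest in naive cells and lowest in primed cells.

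GABRR1 (ENSG00000146276) encodes rho-1, which forms GABA-gated channels best known from the retina. Its level was 3.44 and 4.19 CPM in naive RH6 and 5.3 and 5 CPM in naive RH5, against 0.604 CPM in primed RH6 and 1.01 CPM in primed RH5. The groups did not overlap, and the log2 fold change was 2.47 ± 0.29 (adjusted p = 0.00153). Its neighbour on chromosome 6, GABRR2, was not called, at a log2 fold change of 1.13 ± 0.51 (adjusted p = 0.151).

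GABRP (ENSG00000094755) encodes the pi subunit, known mostly from tissues outside the brain such as the uterus. Its level was 8.41 and 8.46 CPM in naive RH6 and 10.04 and 9.71 CPM in naive RH5, against 2.42 CPM in primed RH6 and 3.55 CPM in primed RH5. The groups did not overlap, and the log2 fold change was 1.63 ± 0.20 (adjusted p = 0.00183). An antisense gene, AC008514.1, shares 1.67% of its exon bases, and without the strand setting of the counting the reads cannot be told apart.

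GABRG1 (ENSG00000163285), the gamma-1 subunit, was the one GABA-A gene that fell over both lines. Its level was 0.0701 and 0.0736 CPM in naive RH6 and 0.283 and 0.0747 CPM in naive RH5, against 0.872 CPM in primed RH6 and 1.23 CPM in primed RH5. It passed the low-count filter through the primed libraries only, which favours a gap in this direction. Each naive library was below both primed libraries, and the log2 fold change was -3.0 ± 0.57 (adjusted p = 0.00979). It rests on few counts, and the summed counts gave an 8.27-fold lower level in naive cells with a 95% counting interval of 3.56 to 22.3.

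**Figure D1:**
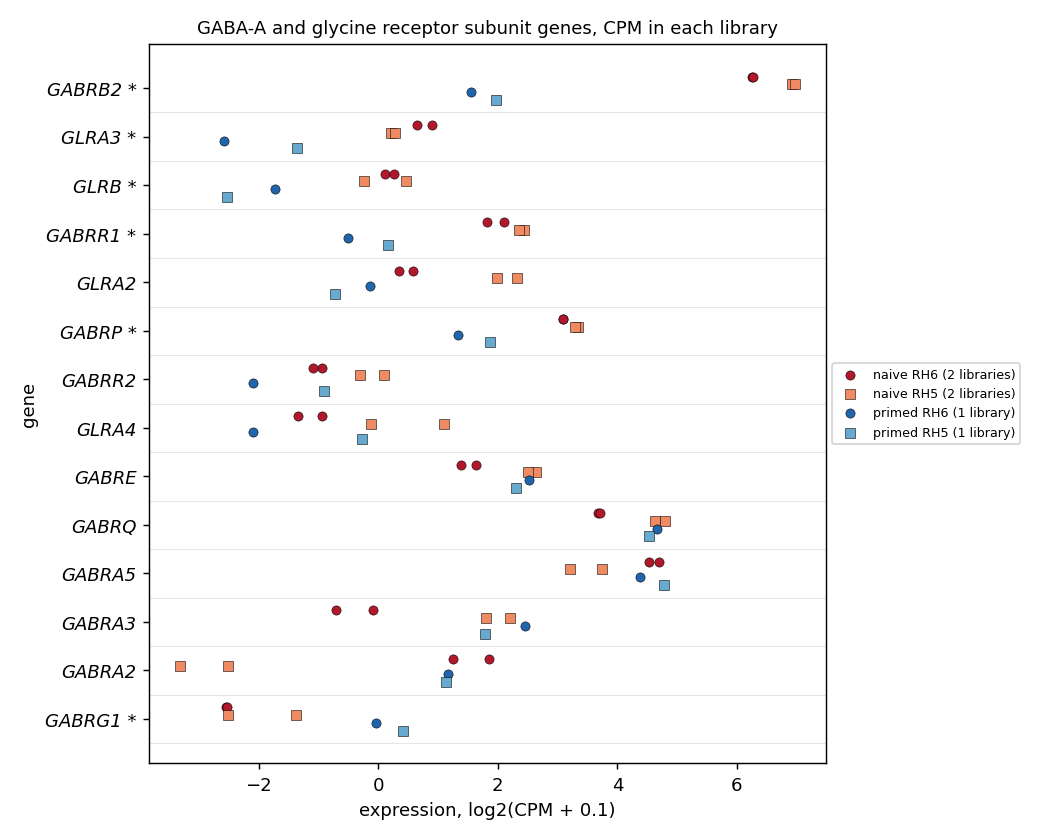
Levels of tested GABA-A and glycine receptor genes, as log2(CPM + 0.1) on the horizontal axis, with 1 point per library and genes ordered by their fold change. Red and orange points are naive RH6 and RH5, dark and light blue points are primed RH6 and RH5, and an asterisk marks an adjusted p under 0.05 over both lines; GABRB2 shows the widest gap, with 75.8 to 126 CPM in naive and 2.82 to 3.84 CPM in primed libraries.

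Over the family, 4 of 12 tested GABA-A genes rose, 1 fell and 7 were not called, with a median log2 fold change of 0.02. Of all genes tested, 12.1% rose and 13.6% fell. For 6 of the 12 the sign differed between the lines.

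Several GABA-A genes changed in 1 line. Within RH6, 7 members rose and 18 fell, where 16.4% and 17.2% of all genes did (25 members, or 59.5%, against 33.6%). Within RH5, 6 rose and 14 fell, where 16.5% and 17% of all genes did (20 members, or 47.6%, against 33.5%). A primed library left out of the fit over both lines leaves about the effect of the other line. In the tests within a line the spread comes from the naive duplicates, and each lone primed library is assumed to vary like them. A set of 16 members was called in both lines, each in the same direction. The matching share over all genes was not counted, so this number only describes the members. With DESeq2 the number called was 14 in place of 25 in RH6 and 13 in place of 20 in RH5. Calls over all genes dropped too, to 4003 in place of 6528 in RH6 and 3905 in place of 6506 in RH5.

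The lines differed in their state effect, by a test of that difference, for 8 members (19%, against 12% of all genes), 4 with a larger value in RH6 and 4 with a larger value in RH5, where 5.86% and 6.16% of all genes did. The genes described next include 6 of the 8.

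GABRA5 (ENSG00000186297), the alpha-5 subunit of extrasynaptic receptors, had 25.9 and 23 CPM in naive RH6 and 13.4 and 9.11 CPM in naive RH5, against 20.7 CPM in primed RH6 and 27.4 CPM in primed RH5. The naive RH5 libraries were the lowest, and the other libraries lay close together. It fell by 1.28 ± 0.21 in RH5 (adjusted p = 9.49e-04) and was not called in RH6 (0.24 ± 0.20), with a difference of 1.52 ± 0.29 (adjusted p = 0.00823). GABRG3, its neighbour on chromosome 15, held 23 counts in all and failed the filter.

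GABRA2 (ENSG00000151834), an alpha subunit gene beside GABRG1 on chromosome 4, had 3.51 and 2.28 CPM in naive RH6 and 0 and 0.0747 CPM in naive RH5, against 2.15 CPM in primed RH6 and 2.1 CPM in primed RH5. It was all but absent from naive RH5 and similar in the other groups. In RH5 the counts were 1 over the naive libraries and 29 in the primed library, a 57.8-fold lower level in naive cells with a counting interval of 9.59 to 2361. In RH6 it was not called (0.43 ± 0.43), and the difference between the lines was 5.97 ± 0.99 (adjusted p = 0.00375). The other genes of that cluster, GABRA4 and GABRB1, had 18 and 9 counts in all.

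The neighbours GABRE, GABRA3 and GABRQ on the X chromosome each fell in naive RH6 and were not called in RH5. They encode the epsilon, alpha-3 and theta subunits, which are known together from brainstem and hypothalamic neurons. GABRA3 (ENSG00000011677) had 0.841 and 0.515 CPM in naive RH6 and 3.4 and 4.48 CPM in naive RH5, against 5.37 CPM in primed RH6 and 3.33 CPM in primed RH5. Its naive RH6 libraries were the low ones. It fell by 2.96 ± 0.39 in RH6 (adjusted p = 2.46e-04) with 0.24 ± 0.34 in RH5, and the difference was -3.20 ± 0.53 (adjusted p = 0.00357).

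GABRQ (ENSG00000147402) had 12.8 and 13 CPM in naive RH6 and 27.6 and 24.6 CPM in naive RH5, against 25.2 CPM in primed RH6 and 22.9 CPM in primed RH5. Here too the naive RH6 libraries stood low, and primed RH6 lay between the naive RH5 libraries with primed RH5 just below them. RH6 showed a change of -0.97 ± 0.15 (adjusted p = 8.05e-04) and RH5 one of 0.19 ± 0.15, with a difference of -1.16 ± 0.22 (adjusted p = 0.00709). GABRE (ENSG00000102287) had 2.52 and 3.02 CPM in naive RH6 and 6.15 and 5.6 CPM in naive RH5, against 5.64 CPM in primed RH6 and 4.85 CPM in primed RH5. Its naive RH6 libraries were below all others. It fell by 1.02 ± 0.27 in RH6 (adjusted p = 0.0162, and 0.173 with DESeq2), and the difference between lines was not called (-1.30 ± 0.38, adjusted p = 0.0548).

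**Figure D2:**
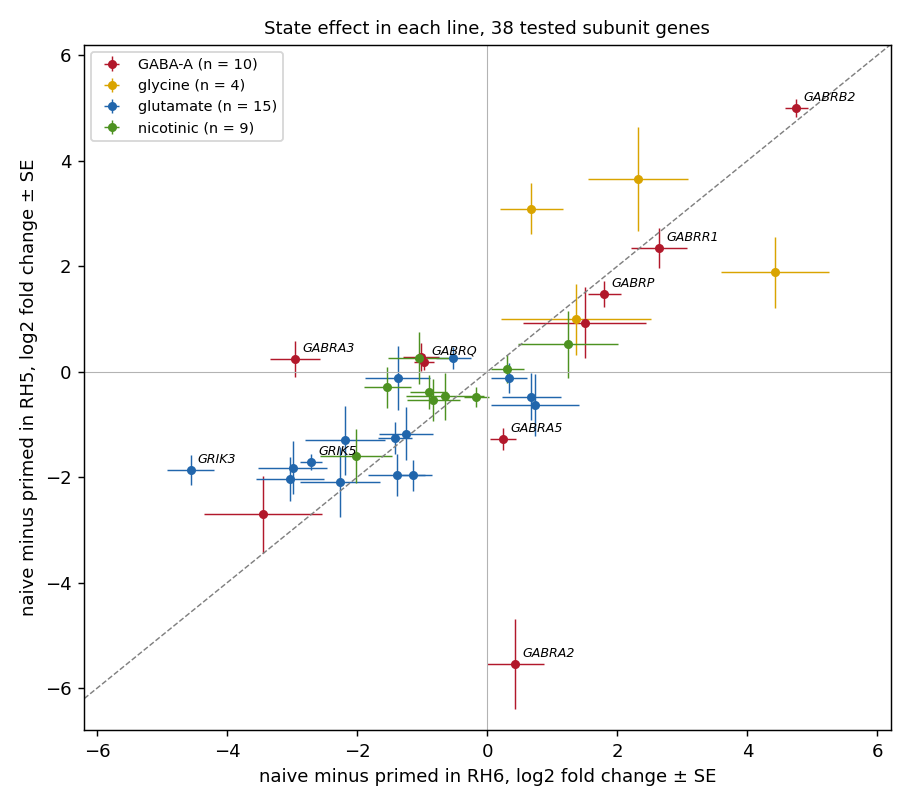
Log2 fold change of naive over primed cells in RH6 (horizontal) and in RH5 (vertical) for 38 tested genes, with standard errors as bars, coloured by receptor family, and with CHRNA4 left out because it had 0 naive counts. The dashed line marks equal effects; GABRB2 sits on it at 4.75 and 5.0, while GABRA2, GABRA3 and GRIK3 lie far from it.

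GABRA6, an alpha subunit gene of cerebellar granule cells, held 6 counts in all and failed the filter. GABRD, the delta subunit of extrasynaptic receptors, had 1 count in the naive libraries and 14 in the primed ones and was not tested.

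Glycine receptors open chloride channels in the spinal cord, brainstem and retina, and their genes were low throughout. GLRA3 (ENSG00000145451), an alpha subunit, had 1.47 and 1.77 CPM in naive RH6 and 1.06 and 1.12 CPM in naive RH5, against 0.0671 CPM in primed RH6 and 0.29 CPM in primed RH5. GLRA3 passed the low-count filter through the naive libraries only, which favours a gap in this direction. The naive libraries lay above both primed ones, and the log2 fold change was 2.87 ± 0.61 (adjusted p = 0.0154). The call was lost without the second naive RH6 library (adjusted p = 0.0521) and without primed RH6 (2.74 and 1.89 on the log2 scale, adjusted p = 0.0541 for the last). The summed counts gave a 7.78-fold higher level in naive cells, with a counting interval of 3.19 to 24.6.

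GLRB (ENSG00000109738), the beta subunit that ties the receptor to the scaffold gephyrin, had 0.981 and 1.1 CPM in naive RH6 and 1.27 and 0.747 CPM in naive RH5, against 0.201 CPM in primed RH6 and 0.0724 CPM in primed RH5. GLRB passed the low-count filter through the naive libraries only, which favours a gap in this direction. The groups did not overlap, and the log2 fold change was 2.82 ± 0.60 (adjusted p = 0.0146). The 7.39-fold higher level in naive cells had a counting interval of 2.73 to 28.0. Within RH6 the call (adjusted p = 0.0409) was lost without the second naive RH6 library (adjusted p = 0.0771), with upper-quartile factors (0.0502), with limma-voom (0.069) and with DESeq2 (0.266).

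GLRA2 (ENSG00000101958), the alpha subunit of fetal glycine receptors, had 1.4 and 1.18 CPM in naive RH6 and 4.88 and 3.88 CPM in naive RH5, against 0.805 CPM in primed RH6 and 0.507 CPM in primed RH5. All naive libraries were above both primed ones, with the naive RH5 libraries highest. Over both lines it was just not called (1.84 ± 0.57, adjusted p = 0.0532), while it was called by DESeq2 (adjusted p = 0.0271), limma-voom (0.0331) and without the low-count filter (0.00595). Within RH5 it rose by 3.09 ± 0.48 (adjusted p = 7.80e-04), within RH6 it was not called (0.68 ± 0.49), and the difference was not called (-2.41 ± 0.74, adjusted p = 0.0612). GLRA4 did not pass over both lines (1.09 ± 0.58, adjusted p = 0.218), and GLRA1 had 14 counts in all.

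Most ionotropic glutamate receptor genes were lower in naive cells. Of 16 tested, 10 fell and 0 rose over both lines, with a median log2 fold change of -1.46. All 10 had every naive library below both primed libraries, and in the other 6 the groups overlapped. The 10 calls come from these same libraries, so this adds no separate support. Among all genes tested, 13.6% were called lower and 22.9% had all 4 naive libraries below both primed libraries. Of the 14 tested neural markers given above, 6 fell and 0 rose over both lines, with a median log2 fold change of -2.44. Within RH6 12 fell and 1 rose (median -3.83), and within RH5 6 fell and 4 rose (median -0.60). Any link between these markers and the channel genes was not tested.

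Of 5 tested kainate receptor genes 4 fell, with a median log2 fold change of -2.23. Their summed level was 7.85 and 8.17 CPM in naive RH6 and 15.9 and 14.3 CPM in naive RH5, against 51.5 CPM in primed RH6 and 49.98 CPM in primed RH5. The naive RH6 libraries were lowest and the primed libraries highest, with no overlap.

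GRIK5 (ENSG00000105737) encodes GluK5, a high-affinity subunit that forms channels only together with GluK1 to GluK3. Its level was 5.12 and 5.74 CPM in naive RH6 and 10.5 and 9.49 CPM in naive RH5, against 35.7 CPM in primed RH6 and 32.8 CPM in primed RH5. Over both lines it fell by 2.23 ± 0.23 on the log2 scale (adjusted p = 9.24e-04). The fall was -2.72 ± 0.17 in RH6 and -1.72 ± 0.16 in RH5, with a difference of -1.0 ± 0.24 (adjusted p = 0.0224, and 0.156 with DESeq2). The second identifier of GRIK5 was at 0 in all libraries.

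GRIK3 (ENSG00000163873), the GluK3 subunit, had 0.491 and 0.294 CPM in naive RH6 and 2.62 and 2.17 CPM in naive RH5, against 9.53 CPM in primed RH6 and 8.76 CPM in primed RH5. The lowest libraries were those of naive RH6, then those of naive RH5, and both primed libraries lay clear of them. Its log2 fold change was -3.07 ± 0.54 (adjusted p = 0.00749). Within the lines it was -4.56 ± 0.36 for RH6 and -1.87 ± 0.28 for RH5. That difference between the lines was called at -2.69 ± 0.50 (adjusted p = 0.00669).

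GRIK4 (ENSG00000149403), the other high-affinity subunit, had 0.631 and 0.221 CPM in naive RH6 and 1.06 and 0.598 CPM in naive RH5, against 3.49 CPM in primed RH6 and 2.97 CPM in primed RH5. It did not overlap between the states and fell by 2.39 ± 0.46 (adjusted p = 0.0101). GRIK2 (ENSG00000164418), the GluK2 subunit, had 0.771 and 0.957 CPM in naive RH6 and 1.27 and 0.822 CPM in naive RH5, against 2.28 CPM in primed RH6 and 4.13 CPM in primed RH5. It fell by 1.7 ± 0.32 (adjusted p = 0.00968), again with no overlap. GRIK1 was not called (-0.03 ± 0.52, adjusted p = 0.974).

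**Figure D3:**
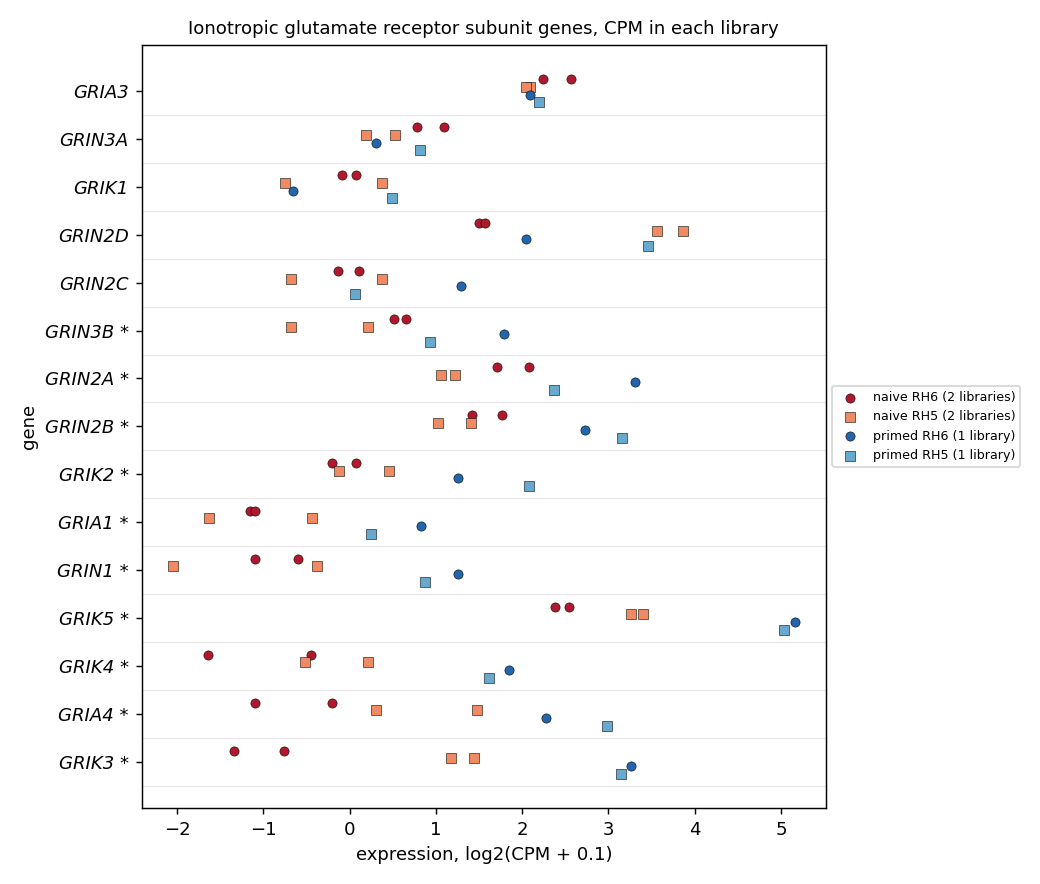
Levels of 15 tested glutamate receptor genes as log2(CPM + 0.1), with 1 point per library, drawn as in the plot of GABA-A and glycine genes. The 10 genes with an asterisk have all 4 naive libraries left of both primed libraries, GRIK3 and GRIA4 with the largest falls.

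AMPA receptors carry most fast excitation, and 2 of their 3 tested genes fell. GRIA4 (ENSG00000152578), GluA4, had 0.771 and 0.368 CPM in naive RH6 and 1.13 and 2.69 CPM in naive RH5, against 4.76 CPM in primed RH6 and 7.82 CPM in primed RH5. The naive libraries were all below the primed ones, and the log2 fold change was -2.48 ± 0.43 (adjusted p = 0.00691). GRIA1 (ENSG00000155511), GluA1, had 0.351 and 0.368 CPM in naive RH6 and 0.637 and 0.224 CPM in naive RH5, against 1.68 CPM in primed RH6 and 1.09 CPM in primed RH5. GRIA1 passed the low-count filter through the primed libraries only, which favours a gap in this direction. Its groups did not overlap either, and it fell by 1.77 ± 0.48 (adjusted p = 0.0359). This call was lost with DESeq2 (adjusted p = 0.087) and without the first or second naive RH6 library (0.103 and 0.111), the second naive RH5 library (0.0845) or the primed RH6 library (0.202).

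GRIA3 was not called (0.10 ± 0.23, adjusted p = 0.793). GRIA2, the subunit whose edited form keeps calcium out of the channel, had 9 counts over all libraries.

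NMDA receptors pair GluN1, which binds glycine, with glutamate-binding GluN2 subunits. GRIN1 (ENSG00000176884), the gene of the obligatory GluN1, had 0.561 and 0.368 CPM in naive RH6 and 0.141 and 0.672 CPM in naive RH5, against 2.28 CPM in primed RH6 and 1.74 CPM in primed RH5. GRIN1 passed the low-count filter through the primed libraries only, which favours a gap in this direction. It was below both primed libraries in every naive library and fell by 2.18 ± 0.50 (adjusted p = 0.0193). Without the first or second naive RH6 library the call was lost (adjusted p = 0.0541 and 0.0741).

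GRIN2B (ENSG00000273079), the GluN2B subunit that predominates early in brain development, had 3.3 and 2.58 CPM in naive RH6 and 2.55 and 1.94 CPM in naive RH5, against 6.51 CPM in primed RH6 and 8.84 CPM in primed RH5. The states did not overlap, and it fell by 1.57 ± 0.27 (adjusted p = 0.00705). GRIN2A (ENSG00000183454), which gains ground in the mature brain, had 4.14 and 3.16 CPM in naive RH6 and 1.98 and 2.24 CPM in naive RH5, against 9.79 CPM in primed RH6 and 5.07 CPM in primed RH5. It fell by 1.35 ± 0.22 (adjusted p = 0.00539), and its lower primed library, RH5, was still above all naive ones.

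GRIN3B (ENSG00000116032), a glycine-binding subunit known from motor neurons, had 1.47 and 1.32 CPM in naive RH6 and 1.06 and 0.523 CPM in naive RH5, against 3.35 CPM in primed RH6 and 1.81 CPM in primed RH5. The groups did not overlap and it fell by 1.22 ± 0.34 (adjusted p = 0.0374), the weakest of the calls. It was lost with DESeq2 (adjusted p = 0.0771), without the line term (0.106), and without the first or second naive RH6 library (0.0917 and 0.112), the second naive RH5 library (0.0848) or primed RH6 (0.113). The gene TMEM259 on the opposite strand shares 2.59% of its exon bases and had 7351 counts.

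GRIN2D (ENSG00000105464), a GluN2 subunit of embryonic neurons and interneurons, had 2.73 and 2.87 CPM in naive RH6 and 14.4 and 11.7 CPM in naive RH5, against 4.03 CPM in primed RH6 and 10.9 CPM in primed RH5. The RH5 libraries did not overlap those of RH6, and over both lines the state effect was not called (-0.10 ± 0.24, adjusted p = 0.792).

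Naive RH6 was at passage 10 and naive RH5 at passage 17. Comparisons of the naive lines therefore cannot tell line and passage apart. Between the naive lines, 3 members were higher and 12 lower in RH6 than in RH5, where 12% and 13.5% of all genes were. Among the 3 were GABRA2 and GABRA5. For GRIN2D the log2 difference was -2.22 ± 0.20 (adjusted p = 4.40e-05). GLRA2 differed by -1.76 ± 0.31 (adjusted p = 0.00249), with both naive RH5 libraries above both naive RH6 ones.

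Some of these line differences depended on 1 library, and also on the test used. With every library kept, the GRIA4 call was lost with DESeq2 (adjusted p = 0.0677) and limma-voom (0.0814). The GLRA4 call was likewise lost with DESeq2 (adjusted p = 0.241) and limma-voom (0.072). GRIA4 differed by -1.71 ± 0.53 (adjusted p = 0.0378), which was lost without the second naive RH6 library (0.108) or the second naive RH5 library (0.238). GLRA4, with 0.421 and 0.294 CPM in naive RH6 and 2.05 and 0.822 CPM in naive RH5, against 0.134 CPM in primed RH6 and 0.724 CPM in primed RH5, differed by -1.98 ± 0.60 (adjusted p = 0.0361). The GLRA4 call was lost without the second naive RH6 library (adjusted p = 0.0976) or the first naive RH5 library (0.313).

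CHRNA7 (ENSG00000175344), which forms nicotinic channels of 1 kind of subunit, had 0.421 and 0.515 CPM in naive RH6 and 1.41 and 1.2 CPM in naive RH5, against 0.738 CPM in primed RH6 and 1.81 CPM in primed RH5. Naive RH6 was below naive RH5 by -1.47 ± 0.46 (adjusted p = 0.041), a call lost without any 1 of the naive libraries (adjusted p 0.0602 to 0.148) or without primed RH5 (0.0535). With every library kept, the call was also lost with DESeq2 (adjusted p = 0.338) and limma-voom (0.0549). The near-identical partial copy CHRFAM7A may take some of the reads of CHRNA7, so the level of CHRNA7 is uncertain.

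Of 10 tested nicotinic receptor genes 2 fell and 0 rose, where 13.6% of all genes fell and 12.1% rose. The median log2 fold change of the 10 was -0.60, also with CHRNA4 at its bound. CHRNA4 (ENSG00000101204) and CHRNB2 encode the alpha-4 and beta-2 subunits, which together form the main high-affinity nicotine receptor of the brain, and both fell. CHRNA4 had 0 counts in all 4 naive libraries, against 2.21 CPM in primed RH6 and 1.74 CPM in primed RH5, which were 57 counts. CHRNA4 thus passed the low-count filter through the primed libraries only. The edgeR test over both lines called its fall (adjusted p = 0.00749). With 3 counts set over the naive libraries as a floor, the bound on its fall was 36.6-fold. The lower 95% counting limit of the ratio, which also takes in the error of the primed counts, was 28.8-fold.

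CHRNB2 (ENSG00000160716) had 1.26 and 0.294 CPM in naive RH6 and 1.41 and 1.05 CPM in naive RH5, against 3.22 CPM in primed RH6 and 3.77 CPM in primed RH5. All naive libraries were below the primed ones, and it fell by 1.81 ± 0.46 (adjusted p = 0.0275). The call was lost without the first or second naive RH5 library (adjusted p = 0.0634 and 0.0766).

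The genes CHRNA5, CHRNA3 and CHRNB4 stand side by side on chromosome 15 and encode the receptor of autonomic ganglia. CHRNB4 (ENSG00000117971) had 1.54 and 1.55 CPM in naive RH6 and 1.63 and 2.39 CPM in naive RH5, against 4.49 CPM in primed RH6 and 2.46 CPM in primed RH5. Primed RH6 was highest, and primed RH5 lay just above the naive libraries. It fell by 1.54 ± 0.36 in RH6 (adjusted p = 0.00778, and 0.118 with DESeq2) and was not called in RH5 (-0.30 ± 0.38). The difference was not called (-1.24 ± 0.53, adjusted p = 0.165).

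CHRNA3 (ENSG00000080644) had 4.91 and 4.05 CPM in naive RH6 and 2.55 and 3.88 CPM in naive RH5, against 8.39 CPM in primed RH6 and 4.2 CPM in primed RH5. It overlapped between the states, and it fell in RH6 by 0.90 ± 0.29 (adjusted p = 0.0338), which was lost without the second naive RH6 library (0.0795) and with DESeq2 (0.251). In RH5 the value was -0.39 ± 0.33 (adjusted p = 0.397), and the difference was not called (-0.51 ± 0.44, adjusted p = 0.502). CHRNA5 was not called in either line. CHRNA3 and CHRNA5 share 198 exon bases on opposite strands, and the antisense gene AC027228.2 shares 832 with CHRNA5.

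**Figure D4:**
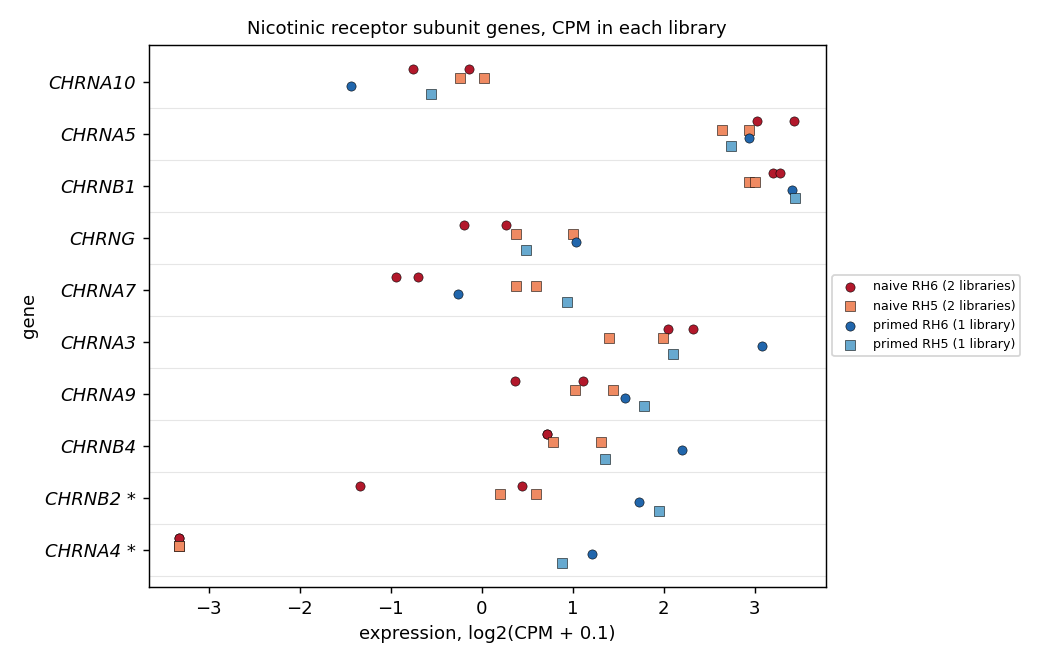
Levels of the 10 tested nicotinic receptor genes as log2(CPM + 0.1), with 1 point per library, drawn as in the plot of GABA-A and glycine genes. CHRNA4 stands at the left edge in all 4 naive libraries, where it had 0 counts, and CHRNB2 is the other gene with an asterisk.

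The subunits of the muscle receptor were low or not called. CHRNA1, CHRND and CHRNE held 24, 24 and 29 counts in all and failed the filter, and CHRNE shares 40.9% of its exon bases with C17orf107 on the opposite strand. CHRNB1 and the fetal subunit gene CHRNG were tested and not called. Of 5 tested muscle markers 1 rose and 0 fell, while MYOG had 0 counts in every library and MYOD1 had 2 in all. CHRNA2, CHRNA6 and CHRNB3 had 7, 10 and 1 counts.

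The tested members not described with library values were CHRNA10, CHRNA5, CHRNA9, CHRNB1, CHRNG, GABRR2, GRIA3, GRIK1, GRIN2C and GRIN3A. Their log2 fold changes ran from -0.83 to 1.13 with adjusted p from 0.151 to 0.974, at mean levels of 0.506 to 9.25 CPM. The 16 untested members had 0 to 36 counts each, with a median of 14.5. GRID1 was among them with 18 counts.

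The genes that work with these receptors were read in the same test. In it 12.1% of all genes rose and 13.6% fell, the shares to set beside each list below. No list was tested as a set, and the counts only describe the listed genes. Of 15 tested GABA-A partners 2 rose and 7 fell in naive cells, with a median log2 fold change of -0.21. TRAK2 and GABARAPL2, which take part in traffic within the cell, rose by 0.65 and 0.40. SHISA7, an auxiliary subunit, fell by 3.89 and the motor gene KIF5A fell by 3.57.

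Of 7 tested genes of GABA synthesis and transport, 1 rose and 2 fell. GAD1, which makes GABA from glutamate, rose by 2.83 ± 0.14. The transporter gene SLC6A11 fell by 2.75 and ABAT, which breaks GABA down, fell by 1.27.

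Partners of AMPA and kainate receptors mostly fell where called, with 8 of 19 lower and 3 higher. NPTX1, which clusters AMPA receptors, fell by 4.94 and the auxiliary subunit gene CACNG8 fell by 4.90. The auxiliary subunit gene CNIH3 rose by 1.60, and ABHD6, which limits AMPA receptor delivery, rose by 1.35. Of 19 tested NMDA and delta partners 7 fell and 1 rose. NRXN2, a presynaptic neurexin gene, fell by 3.27, and the scaffold gene DLG1 rose by 0.42.

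Of 8 tested genes of glutamate supply and transport 3 rose and 4 fell. The glial uptake carriers SLC1A3 and SLC1A2 rose by 2.4 and 2.23, while the carrier SLC1A6 fell by 3.83 and the vesicular transporter gene SLC17A7 fell by 2.4. The glycine carrier SLC6A9 was the 1 glycine transport gene tested and fell by 0.92.

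Of 10 tested nicotinic partners 3 rose and 2 fell, with a median of 0.10. LRP4, the agrin receptor, rose by 1.71 and LYPD1, which binds nicotinic receptors, rose by 1.25. RIC3, a chaperone of nicotinic receptors, fell by 1.5 and AGRN fell by 0.47. ACHE, which breaks acetylcholine down, was the 1 called gene of 3 tested for acetylcholine supply and breakdown, and rose by 2.09. Of 7 tested genes of other ligand-gated channels, ASIC3 rose by 2.09 while P2RX2 and P2RX5 fell by 3.12 and 2.83.

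**Figure D5:**
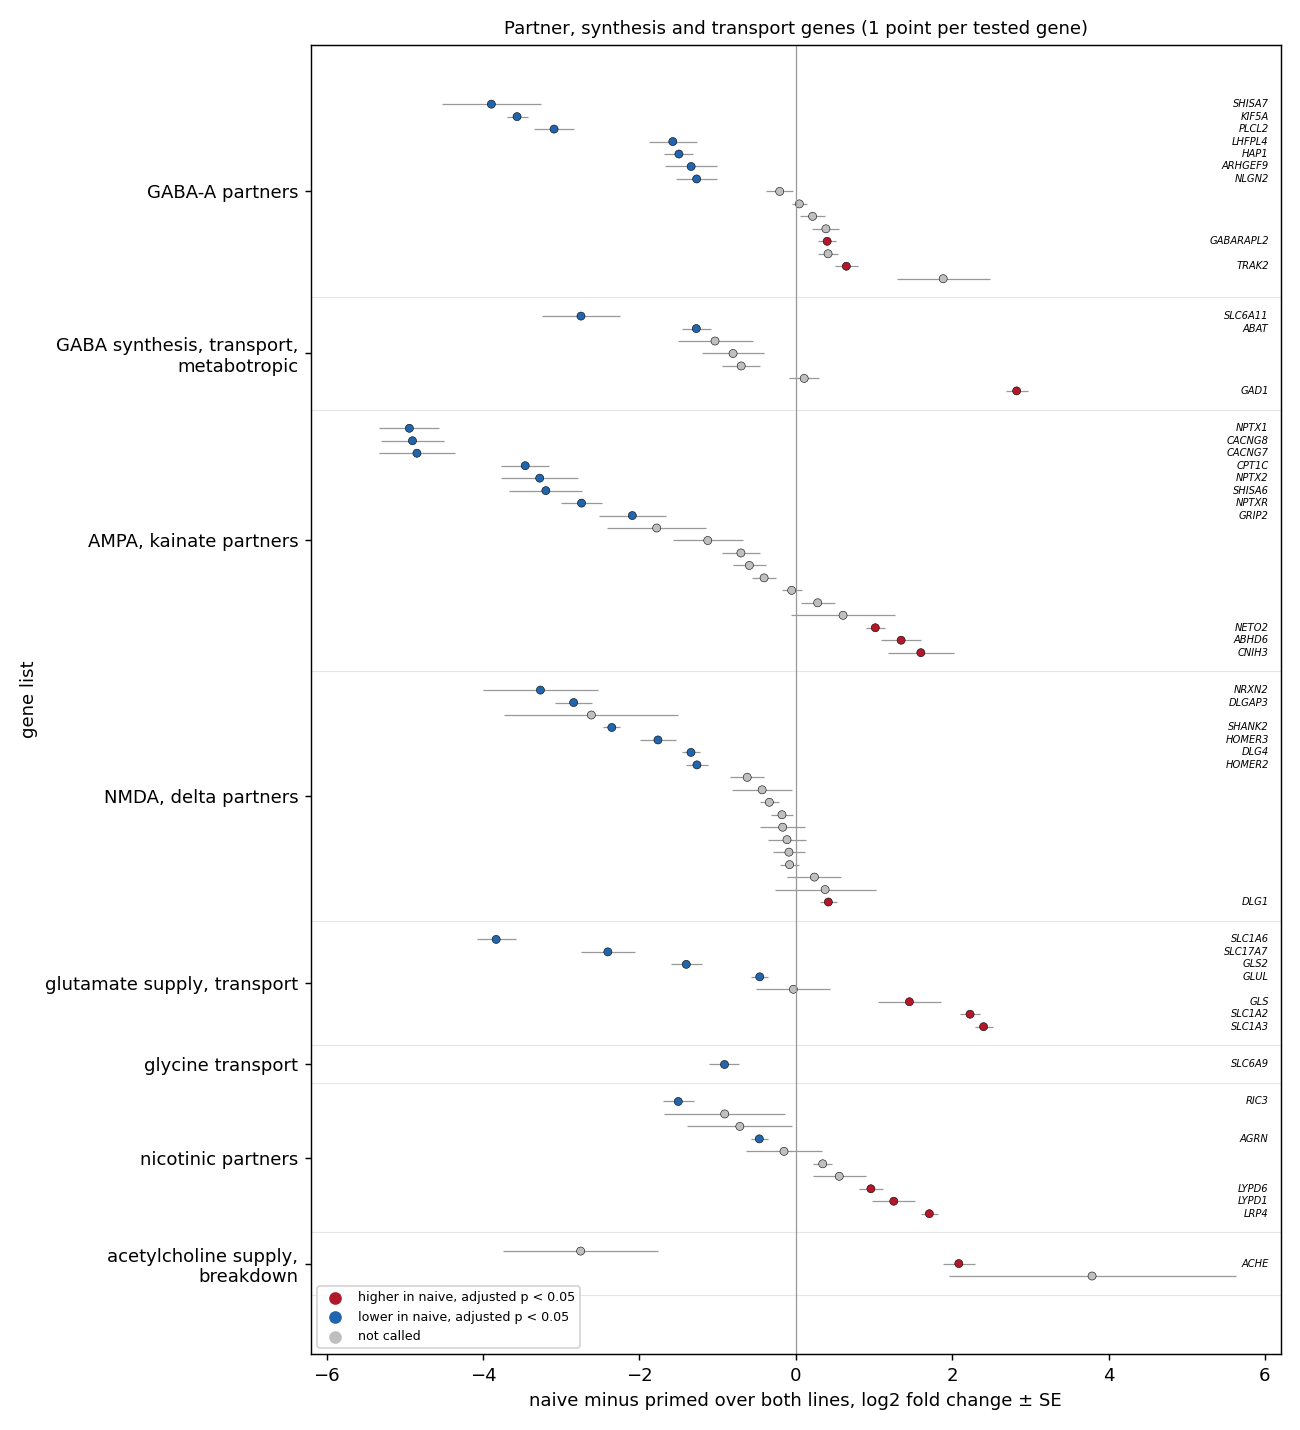
Log2 fold change of naive over primed cells over both lines, with its standard error, for tested partner, synthesis and transport genes, grouped by list and ordered by fold change. Red and blue points were called higher and lower in naive cells, grey points were not called, and called genes are named at the right edge of their rows; the AMPA and kainate list shows 8 falls and 3 rises.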

How the data were processed

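The authors deposited 1 table of raw counts, in whole numbers, for the 6 libraries. The kit was one for stranded total RNA, per the labels' protocols, while the labels name the molecule as polyA RNA. Tools named without role in the submitters' processing notes are STAR 2.4.0a, featureCounts 1.4.5-p1, FastQC and DESeq2. The annotation and the strand setting were not given in the sources used here.

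All genes were tested by the quasi-likelihood F-test of edgeR 4.0.16 (R 4.3.3) with TMM factors and Benjamini-Hochberg adjustment, two-sided. The filter was filterByExpr (count minimum 10, total minimum 15). Naive against primed was fitted with the line as covariate (3 residual degrees of freedom). A fit of 4 group means (2 residual degrees of freedom) gave the effects within a line, their difference, and naive RH6 against naive RH5. The script was tested on simulated data. A permutation test of 4 against 2 libraries cannot give an exact two-sided p under 0.0667. Alternatives used DESeq2 1.42.0, limma 3.58.1 (voom), other scalings, no filter and libraries left out. Counting intervals (95%) cover counting error only.

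The duplicates differed by more than counting noise, with a chi-square per gene of 9.22 in RH6 and 5.76 in RH5. Genes called in any comparison were named with library values, with a mean of at least 1 CPM in a group for those called elsewhere only, and in each partner list the 2 largest called rises and falls. A few genes of the rule are counted in totals and not reported here by name. Members and lists were chosen with earlier results of these data known. Exon lengths and overlaps come from GENCODE 29, gene order and promoters from RefSeq.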

Additional observations from a re-analysis of the deposited data

Results flagged for a closer look

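For 8 subunit genes, of which 6 are given here, the difference between naive and primed cells was itself different in the 2 lines. Each value is the state effect in RH6 minus that in RH5, as a log2 fold change, tested with edgeR on 6 libraries and called at an adjusted p under 0.05. The GABA-A genes were GABRA2 at 5.97, GABRA5 at 1.52, GABRA3 at -3.20 and GABRQ at -1.16. The glutamate receptor genes were GRIK3 at -2.69 and GRIK5 at -1.0. Each rests on 1 primed library per line, and passage number differed between the 4 groups. GRIK3 and GRIK5 fell in both lines and differed in size, while the 4 GABA-A genes were called in 1 line only.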

How the results depend on the processing

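For 29 named members, 997 values were recomputed: 903 kept their direction and side of the threshold, 73 lost the call, 13 gained one and 8 reversed. The cause was not tested. All 8 reversals were of uncalled estimates over both lines. With 1 library left out, the reversing log2 fold changes ran from -5.53 to 0.46 for GABRA2, -2.93 to 0.25 for GABRA3, -1.27 to 0.27 for GABRA5, -1.0 to 0.28 for GABRE, -0.94 to 0.20 for GABRQ and -0.49 to 0.27 for GRIN2D, both ends of each without a primed library. GRIN2D also reversed with limma-voom (0.030) and without the line term (0.088). With naive libraries summed, 2 members were higher and 3 lower over both lines, and fewer of all genes were called as well. With DESeq2, 14 were called in RH6 and 13 in RH5, and within each line fewer of all genes were called as well. Leaving out 1 library gave 5 to 7 higher and 10 to 18 lower over both lines, 22 to 26 called in RH6, 19 to 20 in RH5, 8 to 9 for the difference between lines and 13 to 16 between the naive lines. Contrasts of a line without its primed library have no value. With the replicate number as a block among naive libraries, 17 members were called in place of 15, and deviations of same-numbered libraries correlated at 0.14 in a single pair, which does not show pairing. The 16 members that failed the low-count filter had no test in the main fit, so their differences were not called either way.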

Other observations

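Among the partner genes that differed between the naive lines were SLC5A7 and SHISA9, both chosen after their values were seen, and other partner genes had larger differences than SHISA9. SLC5A7, the carrier that takes up choline for acetylcholine synthesis, had 2 and 0 counts in naive RH6 and 434 and 355 in naive RH5, against 10 in primed RH6 and 4 in primed RH5. SHISA9, an auxiliary subunit of AMPA receptors, had 163 and 161 CPM in naive RH6 and 30.0 and 30.4 CPM in naive RH5, against 29.8 CPM in primed RH6 and 49.5 CPM in primed RH5. SHISA9 rose by 2.44 ± 0.13 in RH6 and fell by 0.71 ± 0.12 in RH5, and the difference between the lines was 3.16 ± 0.17 (edgeR, adjusted p = 6.07e-06).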
